A study of Mus musculus with 6 samples.

Results

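The glycolytic enzymes described here are the products of 10 genes (Hk1, Hk2, Pfkl, Pfkp, Aldoa, Gapdh, Pgk1, Eno1, Pkm and Ldha), named for their place in the pathway. The rule itself uses no measured value, but the list was drawn up with earlier results of these data known. They are 10 of the 19060 genes counted in bulk RNA sequencing of the proximal end of the mouse incisor. The controls were 3 samples from Fgfr1fl/fl mice, in which both alleles of the FGF receptor gene Fgfr1 are flanked by loxP sites but no Cre is present; the labels call them wild type. The mutants were 3 samples from Gli1CreER;Fgfr1fl/fl mice (written Gli1-Cre in the labels), whose Cre, driven from Gli1, becomes active on tamoxifen. Gli1+ cells include the mesenchymal stem cells at the growing end of the incisor. Both groups were 1 month old, and incisors were collected 1 week after tamoxifen. The floxed alleles were thus shared by both groups, whereas the Cre driver was not. Because Cre acts in Gli1+ cells while RNA came from the whole proximal end, epithelial and other cells outside the Gli1+ population also contributed to each library.

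Glycolysis breaks glucose down to pyruvate in the cytosol and yields ATP without oxygen. Hexokinase traps glucose, phosphofructokinase commits it to the pathway, aldolase splits the sugar, and the enzymes from Gapdh to Pkm recover energy from the fragments. Lactate dehydrogenase then regenerates NAD+, and many of these genes are well-known targets of the hypoxia-inducible factors.

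The control samples held 32292660, 31060207 and 32712454 counts and the mutant samples 5276568, 11819566 and 11358258 counts, so every mutant library was shallower than every control library. The titles carry sample codes that partly repeat between the groups, and no label says whether the groups shared a sequencing run, so run and genotype cannot be told apart. All 10 genes passed the filter on low counts. The smallest count among them was 33, for Pfkp in mutant sample 1. Where a gene has no reads, as many as 3 counts remain possible, or 0.0867 CPM in control sample 3 and 0.655 CPM in mutant sample 1 (counting error only). CPM are counts relative to a common library size after upper-quartile scaling, and a gene was called changed at an unadjusted p under 0.05 with a change of over 1.5-fold in edgeR's quasi-likelihood test (two-sided). Adjusted p-values are Benjamini-Hochberg values over all 15826 genes tested. The labels number the samples without saying that each came from a separate animal, so p-values measure the spread between these samples, which may be technical.

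Tooth markers were abundant in every sample. The most abundant epithelial marker was Amelx, the main enamel matrix protein (15184 to 66940 CPM), and the most abundant mesenchymal marker was Col1a1, a chain of type I collagen (16455 to 50909 CPM). Fgfr1 measured 529, 924 and 434 CPM in controls and 148, 318 and 262 CPM in mutants, and the groups did not overlap. Its log2 change was -1.37 (standard error 0.40, adjusted p = 0.0881). Fgfr1 fell by the rule used throughout, but not when an offset for transcript length and GC content was fitted (-0.63). Without the libraries highest in skeletal muscle markers, described further on, it still fell by this rule, but by less (-0.74).

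Of the 10 glycolytic genes, 1 fell in the mutant incisors and 0 rose. The gene that fell was Eno1, which encodes alpha-enolase, the enzyme that makes phosphoenolpyruvate. Over all genes tested, 8.92% fell and 10.9% rose by the same rule, so 1 of 10 is near the background. At an adjusted p under 0.05, 0 of the 10 passed in edgeR, against 6.79% of all genes, while DESeq2 passed 1, Eno1, against 10.2% of all genes. The median log2 change of the 10 genes was -0.39, with 2 of 10 above 0, beside -0.04 for all genes tested. With an offset fitted to transcript length and GC content the direction turned, to a median of 0.05 with 6 of 10 above 0, beside 0.09 for all genes. For 3 of the 10 genes every mutant value was below the lowest control (Hk1, Eno1 and Pkm), as it was for 16.3% of all genes. For none of the 10 was every mutant value above the highest control, as it was for 14.1% of all genes. In bulk tissue, fewer cells of a type and less RNA per cell cannot be told apart.

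**Figure D1:**
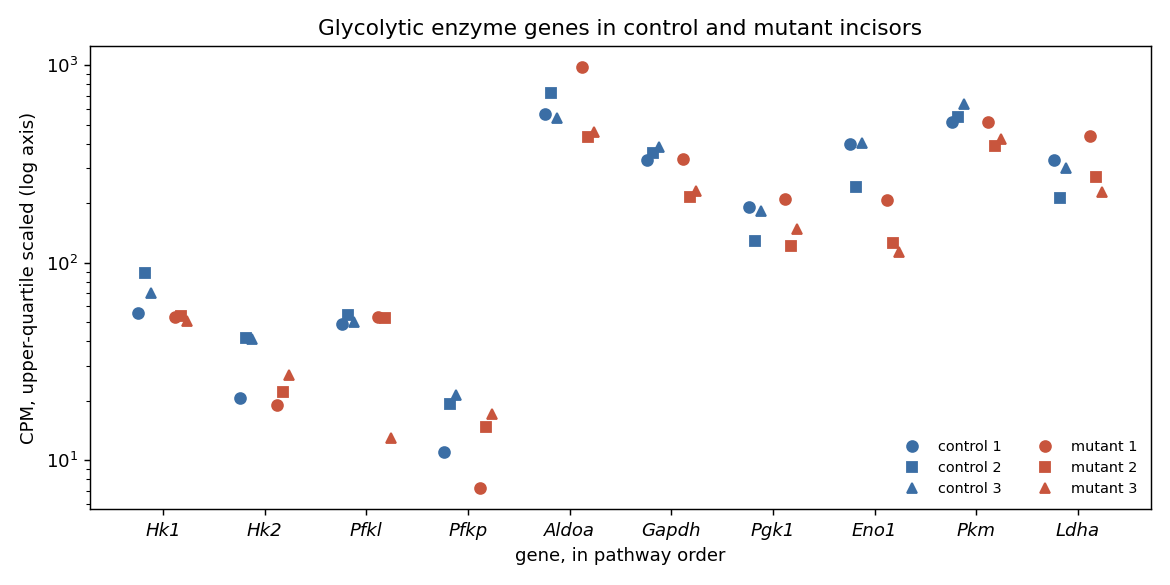
Normalized level of each gene (CPM after upper-quartile scaling, log axis) in pathway order; blue symbols are the 3 control samples and red symbols the 3 mutant samples, with the symbol shape giving the replicate number. Eno1 is separated between the groups, with 241 to 401 CPM in controls and 113 to 207 CPM in mutants, while Aldoa, Pgk1 and Ldha overlap and Pfkl has a single low mutant value of 12.9 CPM.

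Several of these genes have close relatives elsewhere in the genome, which matters for reading the counts. Most copies are processed pseudogenes, intron-less copies made from the mRNA. Searching each gene's transcripts against the GENCODE M21 transcripts in the count table found 68 copies (at least 80% identity over at least 200 bases), of which 3 are not annotated as pseudogenes. Gapdh had 53 copies, Ldha 5, Aldoa 4, and Pgk1, Eno1 and Pkm 2 each. None was found for Hk1, Hk2, Pfkl and Pfkp. Reads were single and 75 bases long. Of all 75-base windows of the Gapdh transcript, 79.4% occurred letter for letter in another gene's transcript, and the share was 67.5% for Pgk1, 61.1% for Eno1, 19.6% for Pkm, 5.23% for Ldha and 1.49% for Aldoa.

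The 3 stretches below, each as long as a read, are examples of how little can separate gene and copy. They were picked for their closeness and do not stand for the whole transcripts. For Gapdh and Pkm the first stretch with only a few differences, all near its middle, was taken. For Pgk1 it was the first with no difference. They lie in the coding sequence of the gene and, for the copy, on the minus strand of GRCm38, at chr2:28934234-28934308 for the Gapdh copy Gm13394, chr5:22726027-22726101 for the Pkm copy Gm6560 and chr3:58104173-58104247 for the Pgk1 copy Gm5537. Capitals mark the base that differs. The Pgk1 stretch is the same in gene and copy and is printed once.
Gapdh, coding bases 302 to 376: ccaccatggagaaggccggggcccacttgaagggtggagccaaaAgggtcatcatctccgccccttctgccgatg
Gm13394: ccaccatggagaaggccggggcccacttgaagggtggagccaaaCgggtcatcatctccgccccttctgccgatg
Pkm, coding bases 68 to 142: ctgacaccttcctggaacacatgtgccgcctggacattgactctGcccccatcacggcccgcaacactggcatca
Gm6560: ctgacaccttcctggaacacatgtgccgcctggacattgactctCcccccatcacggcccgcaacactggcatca
Pgk1 and Gm5537, coding bases 1 to 75: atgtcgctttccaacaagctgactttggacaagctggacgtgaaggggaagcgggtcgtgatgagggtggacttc
Between the gene and the copy printed, a read from such a Gapdh or Pkm stretch is told apart by a single base. Other copies are not shown here and may match as well. A read from the Pgk1 stretch cannot be placed by its sequence at all.

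At the first step, hexokinase 1 (Hk1, chromosome 10 of GRCm38, from 62268855 to 62379908), the form found in most tissues, had 55.7, 88.2 and 70.4 CPM in controls and 53.3, 53.9 and 50.5 CPM in mutants. The mutant samples lay close together, below the lowest control. The log2 change of Hk1 was -0.44 (standard error 0.24, 95% interval -1.0 to 0.11) and the adjusted p was 0.367. Without control sample 2 it was -0.26. Hexokinase 2 (Hk2, chromosome 6, from 82725025 to 82774454), the form typical of muscle, fat and growing cells, had 20.6, 41.5 and 41.2 CPM in controls and 19.0, 22.2 and 27.1 CPM in mutants. Control sample 1 lay among the mutant samples, so the groups overlapped. Hk2 had a log2 change of -0.59 (standard error 0.37, adjusted p = 0.432). Without control sample 1 Hk2 passed the threshold, at -0.86 (adjusted p = 0.267). An offset fitted to transcript length and GC content turned both changes positive, to 0.33 for Hk1 and 0.04 for Hk2.

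Phosphofructokinase, the main control point of the pathway, is built from liver (Pfkl), platelet (Pfkp) and muscle (Pfkm) subunits. Pfkl (chromosome 10, from 77986947 to 78010083) had 48.8, 54.5 and 49.9 CPM in controls and 53.3, 52.5 and 12.9 CPM in mutants. The first and second mutant samples matched the controls and the third lay far below. Its log2 change of -0.37 (standard error 0.48, adjusted p = 0.753) rested on that sample and was 0.04 without it. With the length and GC offset it was 0.37. Pfkp (chromosome 13, from 6579768 to 6648777) had 11, 19.3 and 21.4 CPM in controls and 7.20, 14.7 and 17.1 CPM in mutants, which overlapped. Pfkp had a log2 change of -0.40 (standard error 0.50, adjusted p = 0.746), which was -0.01 with the length and GC offset and ran from -0.66 without mutant sample 3 to -0.13 without mutant sample 1.

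Aldolase A (Aldoa, chromosome 7, from 126795234 to 126800751), which splits fructose 1,6-bisphosphate and is the aldolase of muscle and most other tissues, had 563, 723 and 538 CPM in controls and 978, 433 and 459 CPM in mutants. The highest control and the highest mutant sample were those with most skeletal muscle RNA, described further on. The log2 change of Aldoa was 0.04 (standard error 0.37, adjusted p = 0.975). Its sign depended on the scaling, at -0.07 with TMM and -0.26 with total counts, and it was -0.46 without mutant sample 1.

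Glyceraldehyde-3-phosphate dehydrogenase (Gapdh, chromosome 6, from 125161715 to 125166467), widely used as a reference gene, had 329, 357 and 383 CPM in controls and 335, 215 and 230 CPM in mutants. Mutant sample 1 lay within the controls, and the other mutant samples lay below them. Gapdh had a log2 change of -0.45 (standard error 0.26, 95% interval -1.05 to 0.14, adjusted p = 0.393). Without mutant sample 1 it passed the threshold, at -0.69 (adjusted p = 0.153). With the counts of its copies added, the log2 change of Gapdh was smaller, at -0.29. Phosphoglycerate kinase 1 (Pgk1, chromosome X, from 106187100 to 106203699), which makes the first ATP of the pathway's second stage, had 192, 129 and 183 CPM in controls and 210, 121 and 148 CPM in mutants, and these spanned each other. For Pgk1 the log2 change was -0.07 (standard error 0.29, adjusted p = 0.928), and it was 0.07 when the counts of its copies were added.

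Eno1 (chromosome 4, from 150236721 to 150248879) had 398, 241 and 401 CPM in controls and 207, 126 and 113 CPM in mutants. The highest mutant sample lay below the lowest control. The mean fell from 347 ± 91.4 to 149 ± 50.7 CPM (SD, n = 3 each). The fitted log2 change was -1.22 (standard error 0.33, 95% interval -1.99 to -0.46), or 57.2% lower, and the adjusted p was 0.0717 in the quasi-likelihood test. Eno1 was past the unadjusted threshold in all 15 alternatives, with log2 changes between -1.74 and -0.86. Its adjusted p ran from 0.00250 with DESeq2 to 0.280 without control sample 3. The near-identical gene Eno1b (99.5% identity) had 108, 183 and 125 CPM in controls and 102, 145 and 92.8 CPM in mutants, with a log2 change of -0.29 (standard error 0.29, adjusted p = 0.661). For every 100 counts of Eno1 there were 27.1, 76.0 and 31.2 counts of Eno1b in controls and 49.4, 115 and 82.2 in mutants. With the counts of its copies added, Eno1 had a log2 change of -0.89 (adjusted p = 0.0903), so the fall was smaller but still past the threshold.

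Pyruvate kinase M (Pkm, chromosome 9, from 59656368 to 59679375), which makes pyruvate and ATP, had 516, 545 and 635 CPM in controls and 516, 391 and 422 CPM in mutants. The lowest control and the highest mutant sample were almost level. For Pkm the log2 change was -0.35 (standard error 0.25, adjusted p = 0.511), and 0.20 with the length and GC offset. The table counts Pkm as a single gene, so its M1 and M2 splice forms were not analysed here. Lactate dehydrogenase A (Ldha, chromosome 7, from 46841475 to 46855627), which turns pyruvate into lactate, had 330, 213 and 300 CPM in controls and 437, 270 and 227 CPM in mutants, with wide overlap. The log2 change of Ldha was 0.15 (standard error 0.32, adjusted p = 0.865), and it was -0.12 with total counts in place of the upper quartile.

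**Figure D2:**
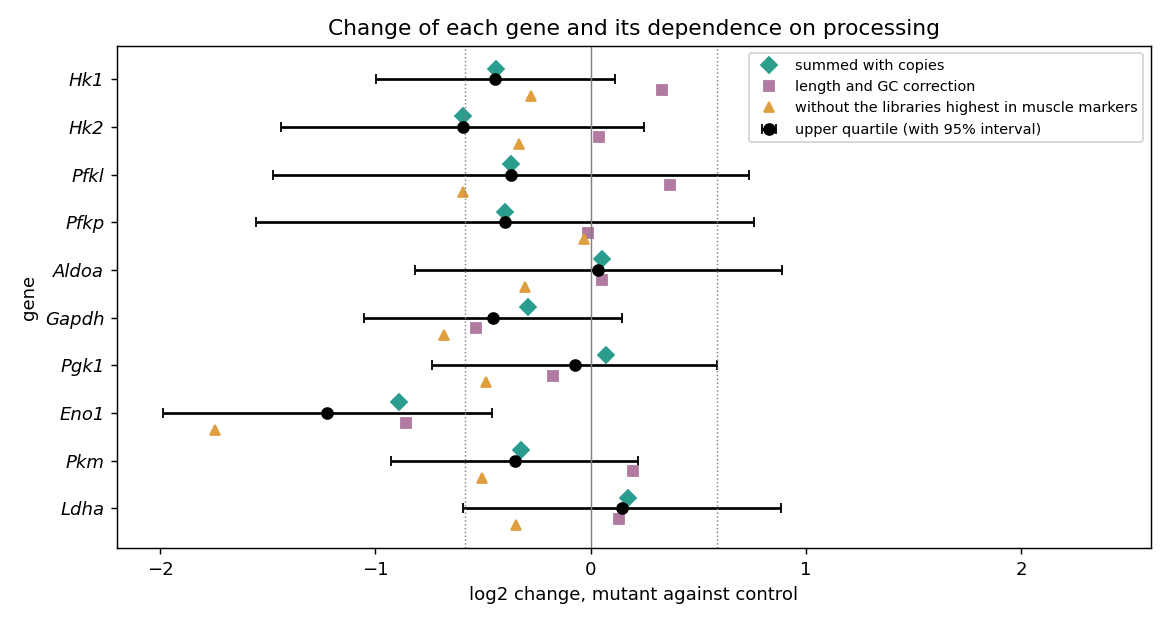
Log2 change of each gene, mutant against control, with its 95% interval in edgeR's fit (black), and the values after adding the counts of copies (diamonds), with an offset for transcript length and GC content (squares) and without control sample 2 and mutant sample 1 (triangles). Dotted lines mark 1.5-fold; Eno1 is the gene whose interval, from -1.99 to -0.46, lies wholly below 0, and the squares of Hk1, Hk2, Pfkl and Pkm lie above 0.

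As a share of all counts, which needs no scaling factor, the 10 genes held 0.262, 0.283 and 0.278% in controls and 0.245, 0.168 and 0.149% in mutants. Every mutant sample lay below every control, with the highest mutant close to the lowest control. After upper-quartile scaling the groups overlapped, since the summed level of the 10 genes was 2464, 2412 and 2623 CPM in controls and 2816, 1699 and 1708 CPM in mutants, with mutant sample 1 the highest of all 6. Adding the counts of all copies gave 0.284, 0.315 and 0.302% against 0.271, 0.199 and 0.167%. Transcripts encoded by the mitochondrial genome, which also enter this total, took 0.845, 0.761 and 0.826% of counts in controls and 7.09, 4.56 and 6.01% in mutants. With these left out of the total the shares of the glycolytic genes were 0.264, 0.285 and 0.280% against 0.263, 0.176 and 0.159%. The part of mitochondrial RNA in the other changes was not tested.

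Within the summed counts of the 10 genes, Eno1 was the only gene whose share did not overlap between the groups. It made up 16.1, 9.998 and 15.3% in controls and 7.34, 7.43 and 6.62% in mutants. This share is independent of the scaling, though not of the other 9 genes. Aldoa made up 20.5 to 29.995% in controls and 25.5 to 34.7% in mutants, Pkm 20.95 to 24.2% and 18.3 to 24.7%, and Gapdh 13.3 to 14.8% and 11.9 to 13.5%. Ldha took 8.83 to 13.4% and 13.3 to 15.9%, so that a single control sample reached the lowest mutant. Hk1, Hk2, Pfkl and Pfkp were each under 4% in every sample.

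**Figure D3:**
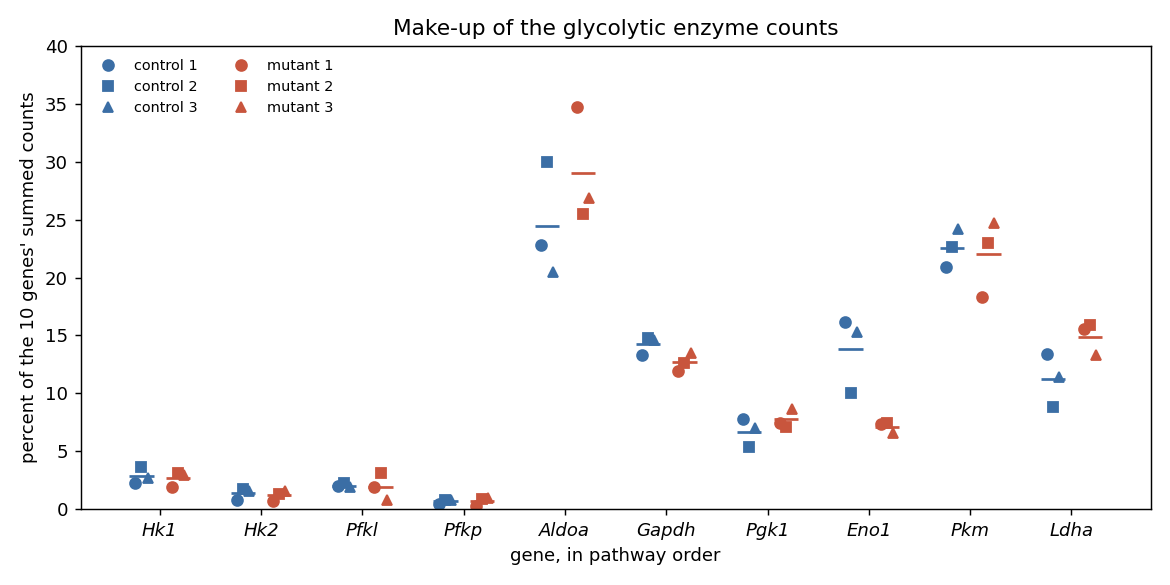
Share of each gene in the summed counts of the 10 glycolytic genes, per sample (percent, linear axis from 0); blue marks control and red mutant samples, and short lines are group means. The mean share of Eno1 was 13.8% in controls and 7.13% in mutants without overlap, while the shares of the other genes overlapped.

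Per kilobase of transcript, the control samples ranked the genes as Aldoa, Gapdh, Pkm, Eno1, Ldha, Pgk1, Hk1, Pfkl, Hk2 and Pfkp, with mean levels from 393 CPM per kilobase for Aldoa to 4.16 for Pfkp. Neighbours whose control values overlapped, and whose order is thus unsettled, were Gapdh (251) and Pkm (232), Eno1 (171) and Ldha (155), Hk1 (16.7) and Pfkl (13.7), and Hk2 (6.24) and Pfkp (4.16). Hexokinases and phosphofructokinases were the least abundant. In the mutant samples Eno1 moved from rank 4 to rank 6, with 73.3 CPM per kilobase on average, behind Ldha (172) and Pgk1 (87.6), although the mutant values of Pgk1 and Eno1 overlapped. The order of the other 9 genes among themselves was the same. These ranks leave out counts assigned to copies of the genes. For Eno1, copies took 21.5 to 43.6% of the counts of gene and copies together in controls and 33.3 to 53.9% in mutants. Whether the ranks, and the move of Eno1, hold with copies added was not tested.

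Balance between isozymes was compared within each sample by the ratio of their counts. None of 7 ratios was without overlap between the groups, and exact two-sided permutation tests gave p-values from 0.3 to 1.0 (adjusted over the 7, at least 0.98; the smallest p that 3 against 3 allows is 0.10). Hk2 per Hk1 was 0.369, 0.471 and 0.585 in controls and 0.357, 0.412 and 0.537 in mutants. Heart-type lactate dehydrogenase (Ldhb) exceeded the muscle-type Ldha throughout, with 2.59, 2.57 and 1.68 counts per count of Ldha in controls and 1.66, 2.51 and 2.34 in mutants. Pgam2, the muscle phosphoglycerate mutase, per Pgam1, the general form, was 0.0216, 0.199 and 0.0209 in controls and 0.661, 0.137 and 0.0620 in mutants.

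Skeletal muscle markers set particular libraries apart. Summed over 12 genes, they reached 11.6, 3531 and 35.9 CPM in controls and 8275, 198 and 1315 CPM in mutants. The most abundant was Acta1, skeletal actin, with 2.33, 883 and 9.33 CPM against 1662, 41.2 and 234 CPM. Of the 12 markers, 1 was at 0 in control sample 1 and 1 in mutant sample 3. None of the 12 passed the test between genotypes. Aldoa, Pgam2, Eno3 and Pygm had their highest 2 values in control sample 2 and mutant sample 1; Pgam2, Eno3 and Pygm, and the next 3 genes, are named after their values were seen. Gys1, muscle glycogen synthase, also had its highest 2 values there, with 19.9, 40.4 and 30.4 CPM in controls and 50.9, 19.1 and 12.4 CPM in mutants. Pfkm was highest in control sample 2 but not raised to that level in mutant sample 1, with 54.4, 106 and 54.1 CPM against 49.8, 44.5 and 36.1 CPM. Slc2a4, the insulin-responsive glucose carrier, was likewise highest in control sample 2 and lowest of the mutants in mutant sample 1, with 1.92, 11.4 and 2.92 CPM against 3.49, 5.38 and 6.15 CPM. Eno3, muscle enolase, had 9.64, 99.8 and 7.17 CPM in controls and 108, 13.7 and 15.9 CPM in mutants. Pygm, muscle glycogen phosphorylase, had 1.37, 61.6 and 1.33 CPM in controls and 71.8, 1.88 and 2.22 CPM in mutants. Without control sample 2 and mutant sample 1, a choice made after seeing the data, Aldoa had a log2 change of -0.31, Ldha of -0.35 and Gapdh of -0.68, with Gapdh then past the threshold (adjusted p = 0.154). Pgk1 was at -0.49, Pkm at -0.51 and Pfkl at -0.59 in the same fit, and none of these passed. Hk1 (-0.28), Hk2 (-0.33) and Pfkp (-0.03) went the other way, with smaller changes than with all samples. Eno1 was at -1.74 (adjusted p = 0.0380). For Eno1, however, control sample 2 was the lowest control (241 CPM) and mutant sample 1 the highest mutant (207 CPM). Leaving out these samples widens the difference whatever their muscle content, so this fit cannot show whether muscle RNA matters for Eno1. The part of muscle RNA in the values of Eno1 was not tested.

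**Figure D4:**
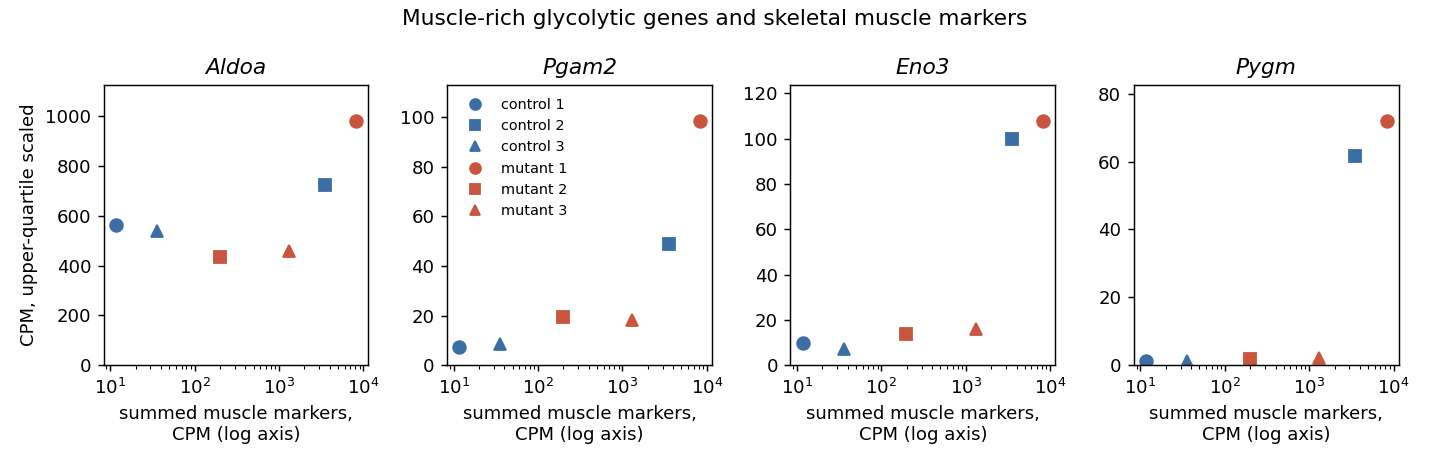
Levels of Aldoa, Pgam2, Eno3 and Pygm (CPM, linear axes from 0) against the summed skeletal muscle markers (CPM, log axis) in the 6 samples; blue is control, red is mutant. Control sample 2 (3531 CPM of markers) and mutant sample 1 (8275 CPM) hold the 2 highest values in all 4 panels.

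Dental epithelium markers were lower in the mutant libraries as a sum, with 85576, 97522 and 120530 CPM in controls and 34228, 33314 and 72493 CPM in mutants over 8 genes. Of the 8, 1 rose (Odam, an ameloblast protein) and 0 fell in the test, and Amelx, the most abundant, had a log2 change of -1.23 (adjusted p = 0.370). Dental mesenchyme markers summed to 27113, 71172 and 32375 CPM in controls and 28652, 24000 and 30377 CPM in mutants over 7 genes, with Col1a1 the most abundant and 1 gene lower (Col1a2). Every marker of both lists was above 0 in every sample. The part of these tissue proportions in the values of Eno1 was not tested.

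Counts assigned to the copies were compared with those assigned to the genes themselves. For Gapdh, copies took 14.0, 14.2 and 14.9% of the counts of gene and copies together in controls and 24.3, 26.8 and 17.96% in mutants. For Pgk1 they took 15.4, 15.035 and 15.1% in controls and 16.8, 36.4 and 18.4% in mutants. Every mutant sample lay above every control for both genes, and likewise at far lower shares for Pkm, Ldha and Aldoa. Whether copies of genes outside the list show the same was not tested. For Eno1 the shares overlapped, with 21.5, 43.6 and 24.1% in controls and 33.3, 53.9 and 45.1% in mutants. Gm13394, the Gapdh copy printed above and the one with most counts, had 38.8, 44.7 and 49.1 CPM in controls and 22.5, 27.6 and 15.5 CPM in mutants, and it fell (log2 change -1.02, standard error 0.31, adjusted p = 0.106). It does not stand for the other Gapdh copies, whose counts together took a larger share in mutants. Of the 53 copies 21 passed the filter on low counts, and since copies could pass through the group where they are high, no count by direction is given. Gm5537, the Pgk1 copy, had 19.3, 12.0 and 17.3 CPM in controls and 22.5, 36.5 and 17.7 CPM in mutants (log2 change 0.66, standard error 0.41, adjusted p = 0.432). How the counting placed reads that match several genes is not given in the sources used here, so the split between a gene and its copies is uncertain.

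**Figure D5:**
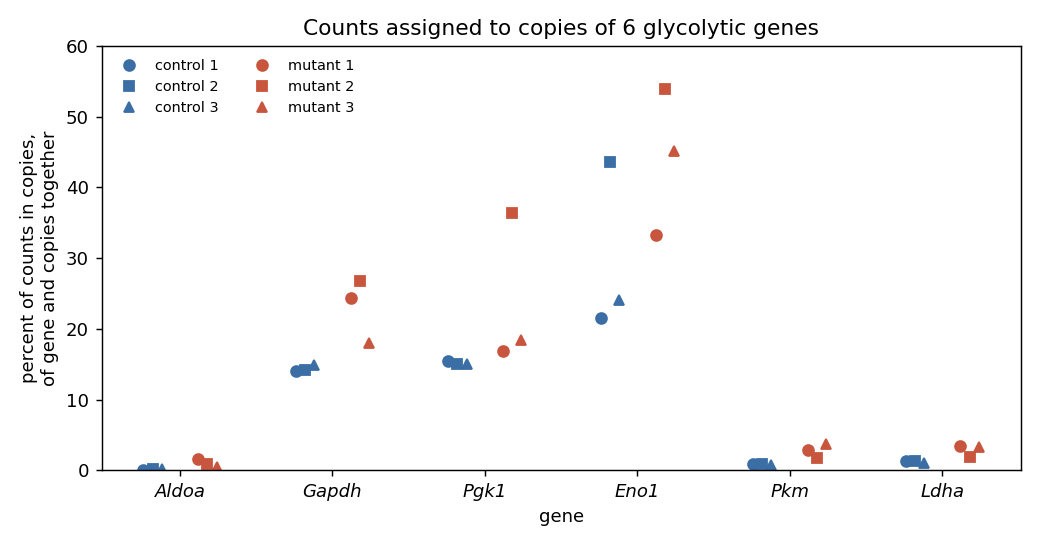
Percent of counts assigned to copies, of the counts of gene and copies together, for the 6 genes that have copies in the table (linear axis from 0); blue is control, red is mutant. Gapdh copies took 14.0 to 14.9% in controls and 17.96 to 26.8% in mutants, and the Eno1 values overlap.

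The remaining steps and isozymes of glycolysis were covered by a second list. Of 12 such genes tested, of 13 in the table, 0 rose and 0 fell with upper-quartile scaling, with a median log2 change of -0.21. Both TMM and DESeq2 passed 2 of them as lower (Pfkm and Pgam1), and total counts passed 3 (with Gpi1). The median was -0.11 with the length and GC offset, and -0.41 without mutant sample 1 or without mutant sample 2. Without control sample 2, Pgam2 and Eno3 passed as higher and Pgam1 as lower. Pgam1, which feeds enolase with its substrate, had 335, 246 and 403 CPM in controls and 149, 141 and 291 CPM in mutants (log2 change -0.76, standard error 0.35, adjusted p = 0.278), and was picked for its place beside Eno1. The most abundant was Ldhb, with 855, 548 and 506 CPM in controls and 724, 677 and 531 CPM in mutants. Of 7 genes for glucose and lactate transport 0 rose and 0 fell (median -0.28, or 0.22 with the length and GC offset, -0.07 without control sample 2 and -0.16 without control sample 3), led in abundance by Bsg, the partner of the lactate carriers, with 970, 636 and 965 CPM against 986, 907 and 865 CPM. Without mutant sample 1, Slc2a3, a glucose carrier, passed as lower. Of 5 genes that set fructose 2,6-bisphosphate, the activator of phosphofructokinase, 0 rose and 0 fell (median -0.45, but 0.18 with the length and GC offset and -1.92 with the replicate block). Leaving out mutant sample 3 gave -1.55, leaving out mutant sample 2 gave -0.23, and without mutant sample 1 Pfkfb1 passed as lower. Pfkfb1 had only 43, 48 and 19 counts in controls and 43, 0 and 0 in mutants, so that call set few reads against none. Of the 5 genes, 2, 1 and 1 had no reads in mutant samples 1, 2 and 3. DESeq2 likewise passed 0 in these last lists of 7 and 5 genes. The most abundant, Pfkfb4, had 8.83, 9.015 and 8.73 CPM in controls and 1.75, 4.27 and 13.3 CPM in mutants.

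Past pyruvate, 1 gene passed at an adjusted p under 0.05. Mpc2, a subunit of the mitochondrial pyruvate carrier, rose from 74.98, 38.0 and 58.0 CPM in controls to 155, 151 and 207 CPM in mutants, without overlap. The log2 change was 1.59 (standard error 0.30, adjusted p = 0.0391), and it stayed past the unadjusted threshold in all 15 alternatives. Its partner Mpc1 had 81.7, 36.4 and 56.8 CPM against 141, 66.9 and 72.3 CPM, which overlapped (log2 change 0.68, adjusted p = 0.398). Mpc1 passed as higher with the replicate block and without control sample 1. Pdk2, a kinase that switches off pyruvate dehydrogenase, fell (log2 change -0.70, standard error 0.27, adjusted p = 0.197). However, Pdk2 missed the threshold with the length and GC offset (-0.27) and without control sample 2 or 3 or mutant sample 3. Pdk2 also missed it without the libraries highest in muscle markers. Of the 11 genes of pyruvate fate, 1 rose, 1 fell and 9 did not pass, with a median of -0.03. The sign of this median was not stable, at 0.04 with the length and GC offset, 0.11 without control sample 2, 0.13 without mutant sample 3 and -0.11 without mutant sample 2. The most abundant, Pdha1 of pyruvate dehydrogenase, had a log2 change of 0.06 (adjusted p = 0.931).

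The pentose phosphate pathway branches off after hexokinase and makes NADPH and ribose. Of its 7 genes 3 fell and 0 rose, beside 8.92 and 10.9% of all genes, with a median of -0.39. The median was -0.03 with the length and GC offset, -0.64 without mutant sample 1 and -0.20 without mutant sample 3. Taldo1, transaldolase, had 113, 75.1 and 101 CPM in controls and 46.9, 47.9 and 43.1 CPM in mutants, with all mutant values close together and below the controls. The log2 change of Taldo1 was -1.07 (standard error 0.24, adjusted p = 0.0464). Pgd, an NADPH-making dehydrogenase, had 86.8, 78.2 and 77.6 CPM against 46.9, 44.2 and 47.8 CPM (log2 change -0.80, standard error 0.20, adjusted p = 0.0561). G6pdx, which opens the branch, had 59.6, 65.7 and 43.1 CPM against 30.3, 19.6 and 34.0 CPM (log2 change -1.01, standard error 0.31, adjusted p = 0.106). All 3 were without overlap and were called in every alternative but the length and GC offset, under which only Taldo1 was called. Transketolase (Tkt), the most abundant of the list, had 288, 238 and 274 CPM against 265, 205 and 142 CPM (adjusted p = 0.518). Tkt passed as lower with total counts and without the libraries highest in muscle markers. Rpe, named after its values were seen, went the other way without overlap (log2 change 0.77, adjusted p = 0.256). It passed as higher without mutant sample 2.

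Of 2 gluconeogenic genes tested, Pck2, mitochondrial PEP carboxykinase, fell (209, 154 and 120 CPM against 119, 102 and 90.9 CPM, log2 change -0.63, adjusted p = 0.240). It missed the threshold with the length and GC offset (-0.12), with a minimum mean of 50 counts, and without control sample 1 or 2 or mutant sample 2 or 3. Pck2 also missed it without the libraries highest in muscle markers. Of 7 glycogen genes Ugp2, which makes UDP-glucose, rose (38.1, 32.8 and 33.1 CPM against 87.1, 42.2 and 48.7 CPM, log2 change 0.77, adjusted p = 0.227), 0 fell, and Pygb, brain glycogen phosphorylase, was the most abundant. Ugp2 missed the threshold with TMM, with total counts and with the length and GC offset (0.12), without any of the control samples, and without mutant sample 1, where it was at 0.38. Ugp2 also missed it without the libraries highest in muscle markers (0.35).

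Of 17 genes of the HIF system and hypoxia response 1 rose and 2 fell, with a median of -0.40. The median was -0.22 with the length and GC offset, and ran from -0.63 without mutant sample 3 to -0.12 without control sample 3 and -0.11 without control sample 2. The genes that rose and fell numbered 1 and 3 with DESeq2 (beside 11.8 and 9.45% of all genes), 1 and 4 with TMM (9.59 and 11%) and with total counts (7.92 and 14.8%), 2 and 5 with the replicate block (9.5 and 7.84%), and 3 and 1 with the length and GC offset (8.73 and 5.91%). P4ha1, a collagen prolyl hydroxylase, passed as lower in all of these but the last, and missed the size threshold in edgeR with upper-quartile scaling (log2 change -0.58, adjusted p = 0.188). Ndrg1, a stress-responsive gene and the most abundant of the list, fell from 327, 294 and 340 CPM to 86.0, 122 and 151 CPM (log2 change -1.42, standard error 0.27, adjusted p = 0.0391). Arnt, the partner of the HIF alpha subunits, fell (log2 change -0.72, adjusted p = 0.174). However, Arnt missed the threshold with the length and GC offset (-0.38) and without control sample 2 or 3 or mutant sample 1 or 2. Arnt also missed it without the libraries highest in muscle markers. Higd1a, a mitochondrial protein, rose from 42.9, 24.3 and 40.8 CPM to 71.8, 70.9 and 90.9 CPM (log2 change 1.11, standard error 0.29, adjusted p = 0.0590). Hif1a itself had a log2 change of -0.24 (adjusted p = 0.684).

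The letters ACGTG, the core of the hypoxia response element, were searched on both strands in RefSeq promoter windows (GRCm38.p6, 250 bases before to 50 after each start). A match can be part of the longer E-box CACGTG. At least 1 window held it for 7 of the 10 genes (70.0%), beside 21.8% of all 27025 genes in the table of windows, and in 8 of 17 windows (47.1%) beside 19.6% of all 32851 windows. This background goes beyond the 19060 genes counted here. It was not matched to the 10 genes in expression, base content or number of windows, so the shares are a description only. Eno1, Pfkl and Pfkp had no match in these windows. Genes with and without a match both occurred among the 9 that did not pass the test.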

How the data were processed

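RNA from 3 control and 3 mutant samples of proximal incisor was sequenced by the authors as single reads of 75 bases, trimmed and aligned to mm10 (GRCm38) in Partek Flow. The submitters' processing notes name TopHat2 2.0.8. The authors deposited estimated counts per gene without normalization, and the counting model is not given in the sources used here. A deposited table of the authors' own comparison (p-values, ratios, fold changes and group means) was not used.

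Samples were grouped by their labels. Counts were rounded to whole numbers and fitted over all genes in edgeR 4.0.16 (R 4.3.3) with upper-quartile scaling, the default filter (minimum count 10, minimum total 15), genotype as the only term and two-sided quasi-likelihood tests, adjusted by Benjamini and Hochberg's method. Alternatives were TMM, total counts, DESeq2 1.42.0, no filter, a mean of at least 50 counts, an offset for transcript length and GC content, counts summed with copies, the replicate block and each replicate left out; the fit without the libraries highest in muscle markers was added after seeing the data. GENCODE M21 matched 18637 symbols directly, 219 by synonym and 204 not at all. Named are all 10 members, Fgfr1, every called gene and the most abundant gene of each other list, and the 3 copies with most counts. Gm6560, a Pkm copy with fewer counts, appears only with its printed stretch. Others are said to be chosen after their values were seen or for their place in the pathway. The members and lists were chosen with earlier results of these data known.

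Total counts ran from 5276568 to 32712454 per sample, and the shallowest library sets the precision of low values.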

Additional observations from a re-analysis of the deposited data

Results flagged for a closer look

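The counts assigned to copies of the glycolytic genes lie outside the comparison of the genes themselves. For 5 of the 6 genes with copies, every mutant sample had a larger share in copies than every control sample. Copies of genes outside the list were not searched, so no share over all genes stands beside this count. The lowest mutant share was 17.96% for Gapdh (highest control 14.9%), 16.8% for Pgk1 (15.4%), 1.72% for Pkm (0.860%), 1.92% for Ldha (1.29%) and 0.437% for Aldoa (0.150%). Mutant libraries were also the shallower ones, and the part of depth and of read placement in these shares was not tested.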

How the results depend on the processing

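Over the alternatives, 0 glycolytic genes rose in every setting. The count that fell was 1 in most settings, 4 with total counts (Hk1, Gapdh, Eno1 and Pkm), where 14.8% of all genes were lower and the median of all genes moved from -0.04 to -0.30, and 2 without the libraries highest in muscle markers (Gapdh and Eno1). Leaving out each replicate gave 1 to 2, with Hk2 added without control replicate 1 and Gapdh without mutant replicate 1. The count at an adjusted p under 0.05 was 0, or 1 (Eno1) with total counts, with DESeq2 and without the muscle-high libraries. Isozyme ratios without overlap numbered 0 to 2 when a replicate was left out (1 without control replicate 2 or 3 or mutant replicate 2, and 2 without mutant replicate 3). The difference in the share of all counts ran from -0.115 to -0.0675 percentage points when a replicate was left out. Signs turned under the length and GC correction for Hk1 (0.33), Hk2 (0.039), Pfkl (0.37) and Pkm (0.20), where the median of all genes was 0.09. Aldoa turned with TMM (-0.066), total counts (-0.26), the replicate block (-0.061) and without the muscle-high libraries (-0.31). With DESeq2 it showed no change (-6.76e-07), and it ran from -0.46 to 0.23 without single replicates. Ldha turned with total counts (-0.12) and without the muscle-high libraries (-0.35), and ran from -0.19 to 0.32 without single replicates. Pgk1 turned when summed with its copies (0.072) and ran from -0.34 to 0.083 without single replicates. Without single replicates Pfkl ran from -0.66 to 0.038, the latter without mutant replicate 3. The causes were not tested. Same-numbered samples had correlated deviations of 0.0472, 0.00937 and 0.0548, too low to treat the numbers as pairs, although every sample correlated best with its own number, a hint from the data. The study's methods speak of pairs of samples without saying what was paired, and the labels give no pairing. With the replicate block Eno1 was at -1.23 (adjusted p = 0.0614), the counts of glycolytic genes were unchanged at 0 higher and 1 lower, and the genes called over the whole table at an adjusted p went from 1074 to 508. Of the other genes named, Pdk2, Pck2, Ugp2 and Arnt missed the threshold in several settings without changing sign, and Fgfr1, G6pdx and Pgd under the length and GC correction alone. The lower depth of the mutant libraries leaves genes at low CPM with few counts, such as 33 for Pfkp in mutant sample 1. The level below which this matters was not tested.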

Other observations

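Red blood cell markers summed to 823, 835 and 380 CPM in control and 1289, 926 and 2560 CPM in mutant samples. Of 6 tested, 2 rose (Hbb-bs, the most abundant, at a log2 change of 1.81, and Hba-a2 at 1.36) and 1 fell (Hba-a1, at -2.04). Hba-a1 and Hba-a2 are near-identical genes, so the split of reads between them is uncertain. Schwann cell markers summed to 151, 122 and 140 CPM in control and 182, 124 and 103 CPM in mutant samples, with Pmp22 the most abundant and 0 of 6 past the threshold. Leukocyte markers summed to 219, 272 and 83.5 CPM against 180, 169 and 230 CPM, led by Lyz2, with 0 of 4 past it.

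Across the 10 glycolytic genes, the log2 change and transcript length had a Spearman correlation of -0.42, beside -0.24 across 13807 protein-coding genes. Both are descriptions, since genes of the same libraries are not independent replicates. The median log2 change was -0.21 for the 6 glycolytic genes with transcripts under 2500 bases and -0.42 for the 4 over 3500 bases, beside 0.18 and -0.26 for protein-coding genes of those lengths.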
